A study of Drosophila melanogaster and Drosophila yakuba and Drosophila virilis with 6 samples.

Results

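The genes described here encode 10 cell adhesion proteins of Drosophila: Fas1, Fas2, Fas3, Nrt, CadN, shg, ed, rst, kirre and hbs. They were chosen by name as adhesion genes, with no threshold on their values but with earlier results of these data known. Their D. melanogaster gene identifiers picked out the tag positions of each gene in each library. These genes are 10 of 18213 genes with at least 1 tag, and all 10 are among the 5953 genes that had enough tags to be tested across species. Their level was measured in eye-antennal discs and in wing discs from 3 species, D. melanogaster (strain CantonS), D. yakuba and D. virilis. Each of the 6 groups has a single library. All discs came from wandering larvae at the third instar, the labels name no genetic change or treatment, and they name a strain for D. melanogaster only. The labels do not say how many animals went into a library. Transcripts were counted by tag profiling, which reads a short stretch next to a cut of the enzyme NlaIII and counts how often each one is seen.

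Imaginal discs are sheets of epithelium in the larva that form the adult body parts, the eye and antenna from one disc and the wing and part of the thorax from the other. Cells of such a sheet are held together by adherens junctions, built around E-cadherin, and by septate junctions, and immunoglobulin proteins on the cell surface let cells recognise each other, sort and guide axons. At this stage photoreceptors are already differentiating in the posterior part of the eye disc, and their axons run through the optic stalk to the brain, whereas the wing disc is still mostly undifferentiated epithelium with a few sensory precursors.

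The libraries held 1860370 to 5673047 tags, of which 0.887% to 3.09% had no gene. The 6 listed eye-antennal markers met the rule given below for a higher eye-antennal level in D. melanogaster (6 of 6 measured), D. yakuba (5 of 5) and D. virilis (6 of 6), and all 5 wing markers measured were higher in the wing library of each species. The 7 photoreceptor and neuronal markers summed to 670, 539 and 676 counts per 1000000 tags with a gene (CPM) in the eye-antennal libraries in D. melanogaster, D. yakuba and D. virilis, against 23.3, 90.9 and 98.9 CPM in their wing libraries, and 6 of 7, 4 of 5 and 5 of 6 measured markers met the rule for the eye-antennal disc. None of the 7 was at 0 in D. melanogaster, whereas futsch had no tag in the other 4 libraries and brp none in either D. yakuba library or in the D. virilis wing library. A gene without a tag in both libraries of D. yakuba or D. virilis may also lack a listed pair there. Brain and neuroblast markers summed to 173, 87.7 and 133 CPM in the eye-antennal libraries and 45.0, 84.4 and 28.8 CPM in the wing libraries, with 5 of 7, 1 of 5 and 6 of 8 meeting the rule for the eye-antennal disc, and ple met it for the wing disc in D. yakuba, with 41 eye-antennal and 100 wing tags. Of these brain markers Hug and Ilp2 had no tag in any of the 3 wing libraries. Glial markers summed to 514, 433 and 337 CPM in the eye-antennal libraries and to 216, 258 and 196 CPM in the wing libraries. In every library nrv2, also a septate junction gene, had the most tags of this list, and it met the rule in no species. The rule for the eye-antennal disc was met by 1 of 7, 2 of 7 and 3 of 6 glial markers. They were repo in D. melanogaster (23.8-fold) and D. yakuba (14.4-fold), moody in D. yakuba (8.34-fold) and D. virilis (6-fold), and loco and gcm in D. virilis. Eaat1 met the rule for the wing disc in D. yakuba, 3.89-fold, and repo had no tag in the D. virilis wing library. Ring gland markers summed to 373, 1007 and 219 CPM in the eye-antennal libraries and 10.3, 48.2 and 95.7 CPM in the wing libraries, with 5 of 6, 5 of 6 and 1 of 4 meeting the rule for the eye-antennal disc. Salivary gland markers summed to 364 CPM in the eye-antennal and 5011 CPM in the wing library of D. melanogaster. In D. yakuba they summed to 234.5 and 158.2 CPM, and in D. virilis to 1.998 and 0.6465 CPM, with 0 genes measured. These lists had higher sums in the eye-antennal disc, like several of the adhesion genes. The exceptions were the salivary gland list in D. melanogaster and the brain list in D. yakuba, whose sums were nearly equal. The part of these lists in the results was not tested. In whole discs, fewer cells of a type and less RNA per cell cannot be told apart.

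Folds are tags in the eye-antennal over tags in the wing library after TMM scaling of library sizes, which multiplies the plain ratio by 0.900 in D. melanogaster, 0.960 in D. yakuba and 0.842 in D. virilis. Each fold has an exact 95% interval that covers counting error only, because each group has 1 library. The rule for calling a gene higher in one disc was a fold of at least 2 at the bound of this interval nearer to 1. By that rule 4 of the 10 genes were higher in the eye-antennal disc of D. melanogaster, where 7.97% of 8134 genes were, and 0 were higher in its wing disc, where 6.80% were. In D. yakuba the count was also 4 of 10, against 3.66% of 8118 genes, and 0 of 10 were higher in its wing disc, against 3.50%. In D. virilis it was 4 of 10 again, against 6.76% of 8864 genes, and 0 of 10 in the wing disc, against 4.65%. The genes were Fas1, Nrt, CadN and rst in D. melanogaster, Fas1, Nrt, rst and kirre in D. yakuba, and Fas1, Nrt, CadN and hbs in D. virilis. Counting intervals that merely exclude 1, 6, 7 and 6 of the 10 genes were above 1 in D. melanogaster, D. yakuba and D. virilis, where 27.2%, 19.8% and 21.6% of genes were, and 1, 0 and 1 were below 1, where 28.6%, 16.4% and 26.0% were. The median log2 fold of the 10 genes was 1.12, 0.91 and 0.75 in D. melanogaster, D. yakuba and D. virilis, and that of all genes -0.01, 0.02 and -0.05. Because the 10 genes were chosen with earlier results of these data known, these counts and medians describe these genes only. Fitted across species, with species as a block, edgeR's quasi-likelihood test with Benjamini-Hochberg adjustment over all 5953 genes placed 1 of the 10, Nrt, past an adjusted p of 0.05 with a higher level in the eye-antennal disc, where 0.487% of genes passed, and 0 with a lower level, where 0.185% did. The fit has 2 residual degrees of freedom.

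**Figure D1:**
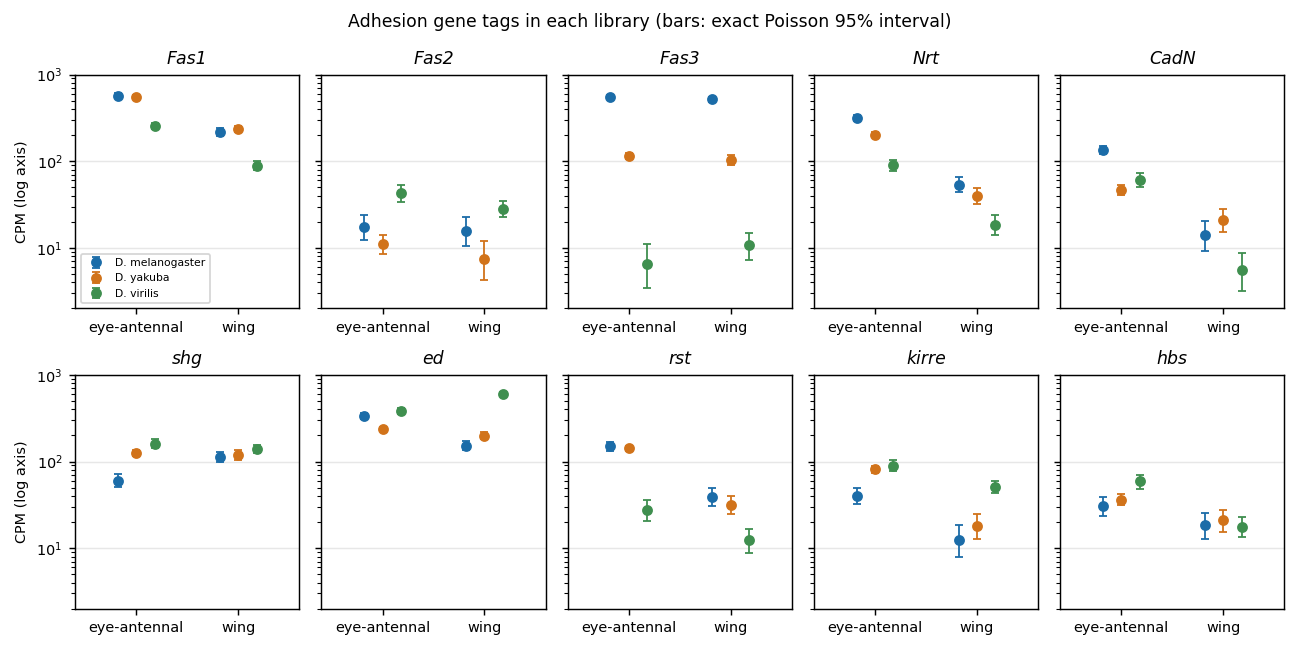
CPM in the eye-antennal and the wing library of each species, on a log axis, for the 10 genes by the gene mapping, with bars for the exact Poisson 95% interval and colours for species. Fas1, Nrt and rst sit higher in the eye-antennal library in all 3 species, whereas Fas3 differs more between species than between discs.

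Nrt (FBgn0004108) encodes Neurotactin, a transmembrane protein whose outer part resembles cholinesterases, which binds the secreted immunoglobulin protein Amalgam and is known from axon growth. The gene lies on chromosome 3L, 16766072 to 16777465 on the plus strand of the BDGP6.54 assembly, and overlaps mus302 on the other strand. Nrt had 681 eye-antennal and 99 wing tags in D. melanogaster, with 1121 and 86 in D. yakuba, and with 180 and 57 in D. virilis. That is 315, 202 and 89.9 CPM in the eye-antennal libraries in D. melanogaster, D. yakuba and D. virilis, against 53.7, 39.9 and 18.4 in their wing libraries. Every eye-antennal library was above every wing library, across species as well as within them. The fold was 5.28 (95% interval 4.27 to 6.58) in D. melanogaster, 4.86 (3.90 to 6.13) in D. yakuba and 4.11 (3.04 to 5.64) in D. virilis. Its mean log2 fold over species was 2.23 ± 0.19 (SD, n = 3), and the fit gave 2.32 with a standard error of 0.26 and an adjusted p of 0.0265 in edgeR. The level of Nrt therefore rose in the eye-antennal disc relative to the wing disc by the test as well as by the counting intervals. The adjusted p was 0.0846 without the D. yakuba libraries and 0.0650 when only the most-tagged position of each gene was counted, both in edgeR. At the most-tagged position alone the fold was 6.37 (4.99 to 8.24) in D. melanogaster, 5.004 (3.98 to 6.37) in D. yakuba and 4.97 (3.59 to 7.003) in D. virilis. The differences between species in this log2 fold ran from -0.36 (-0.89 to 0.16), D. virilis minus D. melanogaster, to -0.12 (-0.56 to 0.32), D. yakuba minus D. melanogaster, and their counting intervals held 0.

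The 3 genes whose log2 folds in the 3 species were most like those of Nrt, among 3543 genes with at least 50 tags per species, were E(spl)mdelta-HLH, a Notch target, GstZ2, a glutathione transferase, and rho, a membrane protease that releases EGF receptor ligands. Their root mean square distance from Nrt was 0.41, 0.44 and 0.45 on the log2 scale. The gene for the ligand, Ama, had 391 eye-antennal and 973 wing tags in D. melanogaster, which is 3.24-fold higher in the wing disc. In D. yakuba Ama had 5250 eye-antennal and 1839 wing tags, a fold of 1.07 (1.01 to 1.12). No tag was listed under Ama in the D. virilis gene mapping, which can also mean that no D. virilis gene is paired with it. The pair of ligand and receptor could thus be read in 2 species only. In both of them Nrt stood higher in the eye-antennal disc, while Ama did not pass the rule in that direction.

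Fas1 (FBgn0000634) encodes Fasciclin 1, a fasciclin-domain protein linked to the cell surface by lipid and found on subsets of axons. It lies on chromosome 3R, 16625238 to 16639771 on the plus strand of BDGP6.54. Fas1 had 1236 eye-antennal and 401 wing tags in D. melanogaster, with 3070 and 506 in D. yakuba, and with 509 and 275 in D. virilis. That is 572, 554 and 254 CPM in the eye-antennal libraries in D. melanogaster, D. yakuba and D. virilis, against 217, 235 and 88.9 in their wing libraries. The fold was 2.37 (2.11 to 2.65) in D. melanogaster, 2.26 (2.06 to 2.49) in D. yakuba and 2.41 (2.08 to 2.80) in D. virilis. These are the closest folds of any of the 10 genes over the 3 species, with a mean log2 fold of 1.23 ± 0.05 (SD, n = 3), and no pair of species differed beyond its counting interval. This holds for the sum over positions: at the most-tagged position alone the fold was 2.17 (1.85 to 2.56) in D. melanogaster and 1.59 (1.41 to 1.80) in D. yakuba, where the call was lost, and 4.53 (3.56 to 5.82) in D. virilis, where that position is the downstream one. The fitted log2 fold was 1.31 with a standard error of 0.24 and an edgeR adjusted p of 0.0811, which misses the threshold. It passed with DESeq2 (adjusted p = 0.0002974) and in edgeR without a filter on low counts (adjusted p = 0.0469).

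CadN (FBgn0015609) encodes N-cadherin, which in the developing eye is found in photoreceptors and later in cone cells and acts in the sorting of photoreceptor axons. The gene spans chromosome 2L, 17647053 to 17778340 on the minus strand of BDGP6.54. CadN had 292 eye-antennal and 26 wing tags in D. melanogaster, with 259 and 45 in D. yakuba, and with 121 and 17 in D. virilis. Its fold was 8.62 (5.76 to 13.4) in D. melanogaster and 9.26 (5.55 to 16.4) in D. virilis, the highest of the 10 genes in both species. In D. yakuba it was 2.15 (1.56 to 3.02), which missed the 2-fold rule, with 46.7 CPM in eye-antennal and 20.9 CPM in wing discs. D. yakuba minus D. melanogaster, its log2 fold differed by -1.99, with a counting interval of -2.72 to -1.26. The mean log2 fold was 2.45 ± 1.18 (SD, n = 3), the widest spread of the 10 genes, and the fit gave 2.51 with a standard error of 0.50 and an edgeR adjusted p of 0.102. Without the D. yakuba libraries the edgeR adjusted p was 0.0425, in DESeq2 it was 0.000682, and without a filter on low counts in edgeR it was 0.0367. At the most-tagged position alone the D. yakuba fold was 4.14 (2.39 to 7.74), which met the rule. That position is not the counterpart of the most-tagged one of D. melanogaster. At the counterpart D. yakuba had 83 eye-antennal and 27 wing tags, against 199 and 18 in D. melanogaster. The low D. yakuba fold is therefore not limited to the sum over positions. At the most-tagged position of D. virilis the fold was 67.5 (18.2 to 565), on 2 wing tags. The D. virilis fold also depends on the mapping: the genome mapping, described below, placed 16 eye-antennal and 15 wing tags on CadN there, a fold of 1.47 (0.679 to 3.19).

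The Irre cell recognition module is a group of immunoglobulin proteins in which Roughest (rst) and Kirre bind Hibris (hbs) and Sticks and stones on neighbouring cells. In the pupal retina this binding sorts the cells between ommatidia, and in the embryo it brings myoblasts together for fusion. rst lies on chromosome X, 2950399 to 2973834, inside the span of kirre (2740384 to 3134532) and on the opposite strand, and the files give no strand for a tag.

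rst (FBgn0003285) had 323 eye-antennal and 72 wing tags in D. melanogaster, with 784 and 68 in D. yakuba, and with 55 and 38 in D. virilis. The fold was 3.44 (2.66 to 4.51) in D. melanogaster, 4.30 (3.36 to 5.60) in D. yakuba and 1.88 (1.22 to 2.93) in D. virilis, where it missed the 2-fold rule. At the most-tagged position alone the D. virilis fold was 0.789 (0.325 to 1.80), on 28 tags. The fitted log2 fold was 1.71 with a standard error of 0.33 and an edgeR adjusted p of 0.0948. The adjusted p was 0.0140 in edgeR without the D. virilis libraries and 0.00302 in DESeq2.

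kirre (FBgn0028369) had 87 eye-antennal and 23 wing tags in D. melanogaster, with 453 and 39 in D. yakuba, and with 180 and 156 in D. virilis. Its fold was 2.90 (1.82 to 4.82), 4.34 (3.12 to 6.18) and 1.50 (1.21 to 1.87) in D. melanogaster, D. yakuba and D. virilis, and D. yakuba alone met the rule. That call is lost by the genome mapping, with a fold of 3.28 (1.17 to 12.7) on 39 tags, and at the most-tagged position alone D. melanogaster met the rule, with 9.09 (3.67 to 29.1) on 5 wing tags. By the gene mapping rst and kirre thus both had their highest fold in D. yakuba and their lowest in D. virilis. D. virilis minus D. yakuba, the log2 fold differed by -1.19 (-1.88 to -0.50) for rst and by -1.51 (-2.07 to -0.95) for kirre, both beyond counting error. For kirre the fitted log2 fold was 1.46 with a standard error of 0.36 and an edgeR adjusted p of 0.174, or 0.0328 without the D. virilis libraries.

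hbs (FBgn0029082) had 66 eye-antennal and 34 wing tags in D. melanogaster, with 201 and 45 in D. yakuba, and with 118 and 55 in D. virilis. For this gene D. virilis had the highest fold of the species: it was 1.49 (0.970 to 2.32) in D. melanogaster, 1.67 (1.20 to 2.36) in D. yakuba and 2.79 (2.01 to 3.92) in D. virilis, the only species where it met the rule. The lower bound lay at the threshold, and the call was lost by the genome mapping, with 2.78 (1.99 to 3.92), and at the most-tagged position, with 2.70 (1.91 to 3.86). The fitted log2 fold was 1.01 with a standard error of 0.32 and an edgeR adjusted p of 0.305. The partner sns was near the limit of detection, with 20, 27 and 3 tags in the eye-antennal libraries in D. melanogaster, D. yakuba and D. virilis against 10, 3 and 0 in their wing libraries. Larval muscle markers, which bear on a gene group known from muscle, summed to 1432, 139 and 623 CPM in the eye-antennal libraries in D. melanogaster, D. yakuba and D. virilis, against 451, 72.8 and 1864 in their wing libraries, and their part in these values was not tested. Adepithelial myoblast markers, a list that holds sns, summed to 173, 110 and 93.9 CPM in the eye-antennal libraries. In the wing libraries they summed to 248, 104 and 92.8 CPM. Of 6 measured in each species, 2, 1 and 1 met the rule for the wing disc and 0, 0 and 1 for the eye-antennal disc. The part of these myoblast markers was not tested either.

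**Figure D2:**
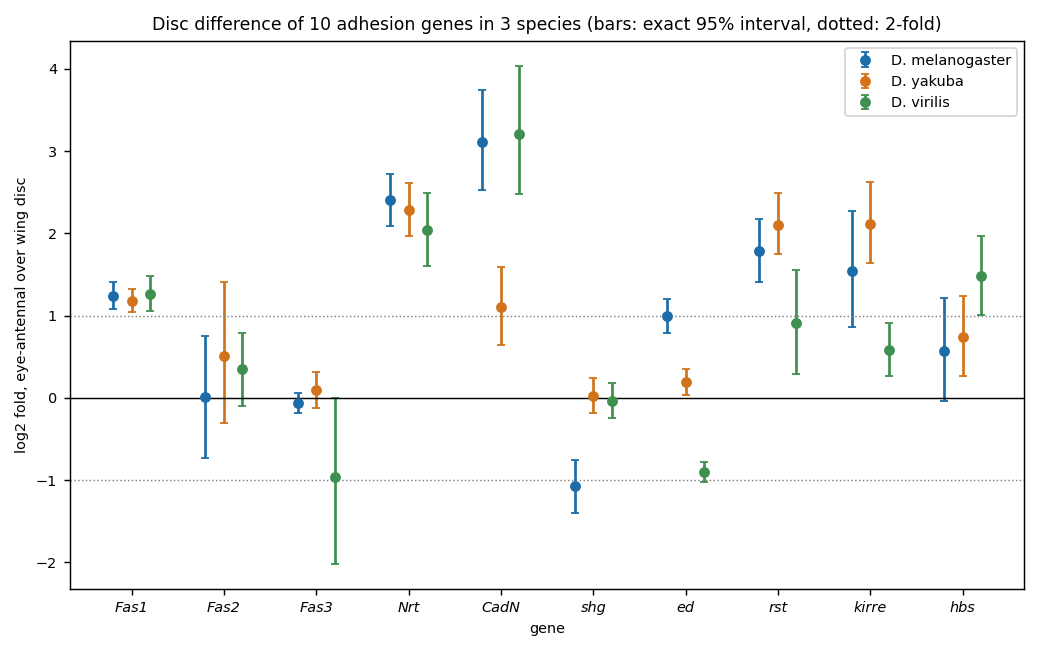
Log2 fold of eye-antennal over wing disc for each of the 10 genes in 3 species, with bars for the exact 95% interval of counting error and dotted lines at a 2-fold difference. Fas1 and Nrt lie above the upper dotted line in all 3 species, and the ed points lie on both sides of 0.

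Fas2, Fas3, shg and ed did not meet the 2-fold rule in any species. shg (FBgn0003391) encodes E-cadherin, the core protein of adherens junctions. It had 130 eye-antennal and 210 wing tags in D. melanogaster, with 700 and 256 in D. yakuba, and with 323 and 431 in D. virilis. In D. melanogaster the fold was 0.475 (0.379 to 0.594), so that the level was 2.11-fold higher in the wing disc, with an interval that excluded 1. In D. yakuba (1.02, 0.883 to 1.18) and D. virilis (0.975, 0.842 to 1.13) the interval held 1 and stayed well within 2-fold in either direction. These intervals cover counting error only, so with 1 library per disc they do not bound the difference between discs. The fitted log2 fold was -0.27 with an edgeR adjusted p of 0.808.

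ed (FBgn0000547) encodes Echinoid, an immunoglobulin protein of adherens junctions that also acts on Notch and EGF receptor signalling. It had 726 eye-antennal and 280 wing tags in D. melanogaster, with 1307 and 427 in D. yakuba, and with 764 and 1849 in D. virilis. The eye-antennal libraries had 336, 236 and 382 CPM in D. melanogaster, D. yakuba and D. virilis, and the wing libraries 152, 198 and 598. The fold was 1.99 (1.73 to 2.29) in D. melanogaster and 1.14 (1.02 to 1.28) in D. yakuba, both above 1, though at the most-tagged position alone D. yakuba was at 0.960 (0.791 to 1.17). In D. virilis it was 0.538 (0.494 to 0.585), which is 1.86-fold higher in the wing disc. The log2 fold differed by -1.89 (-2.12 to -1.65), D. virilis minus D. melanogaster, and by -1.09 (-1.29 to -0.89), D. virilis minus D. yakuba, with intervals for counting error only. The average over species hides this: the fitted log2 fold was 0.17 with an edgeR adjusted p of 0.917. The genome mapping of the same D. virilis libraries gave 546 eye-antennal and 1463 wing tags and a fold of 0.513 (0.464 to 0.567).

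Fas2 (FBgn0000635) encodes Fasciclin 2, an NCAM-type immunoglobulin protein of axons and epithelia, and was among the genes with the fewest tags. It had 38 eye-antennal and 29 wing tags in D. melanogaster, with 61 and 16 in D. yakuba, and with 85 and 87 in D. virilis. All 3 intervals held 1, and the fold ran from 1.01 (0.604 to 1.69) in D. melanogaster to 1.42 (0.810 to 2.64) in D. yakuba. The D. yakuba interval does not exclude a difference of up to 2.64-fold. The fitted log2 fold was 0.36 with an edgeR adjusted p of 0.751.

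Fas3 (FBgn0000636) encodes Fasciclin 3, an immunoglobulin protein of septate junctions. It had 1196 eye-antennal and 958 wing tags in D. melanogaster, a fold of 0.958 (0.879 to 1.04), and 641 and 224 in D. yakuba, a fold of 1.07 (0.916 to 1.25). In D. virilis the gene mapping placed only 13 eye-antennal and 33 wing tags on it. The fitted log2 fold was -0.14 with an edgeR adjusted p of 0.906.

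For D. yakuba and D. virilis the authors deposited a second file per library, the genome mapping, which places tag positions on the D. melanogaster genome. Fas3 and Nrt gained many tags by it. In D. virilis 1565 further tags at 7 positions lay on Fas3 by the genome mapping and on another gene by the gene mapping, mainly on the gene listed as FBgn0204926. Counting every position that either file puts on Fas3 gave 543 eye-antennal and 1068 wing tags in D. virilis, 1611 against the 46 of the gene mapping, and a fold of 0.662 (0.596 to 0.734), with more tags in the wing disc. In D. yakuba 1658 tags at 2 positions lay on Nrt by the genome mapping and on a gene listed as FBgn0036660 by the gene mapping. The larger of them, with 1451 eye-antennal and 125 wing tags, was placed at the same D. melanogaster position, 16770476 on 3L in the files' own coordinates, that held most Nrt tags of D. melanogaster, 573 eye-antennal and 73 wing. With these tags Nrt had 2641 eye-antennal and 224 wing tags in D. yakuba, and its fold was 4.40 (3.84 to 5.07). In D. virilis Nrt then had 317 and 87 tags and a fold of 4.74 (3.73 to 6.08), so the Nrt fold by either mapping was between 4 and 5 in both species. The genome mapping in turn missed tags that the gene mapping held. In D. yakuba these were mainly 470 of the 492 kirre and 365 of the 852 rst tags. In D. virilis they were mainly 290 of 336 kirre, 107 of 138 CadN, 116 of 172 Fas2 and 346 of 784 Fas1 tags. There 602 of 2613 ed, 195 of 754 shg and 29 of 93 rst tags were missed as well.

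**Figure D3:**
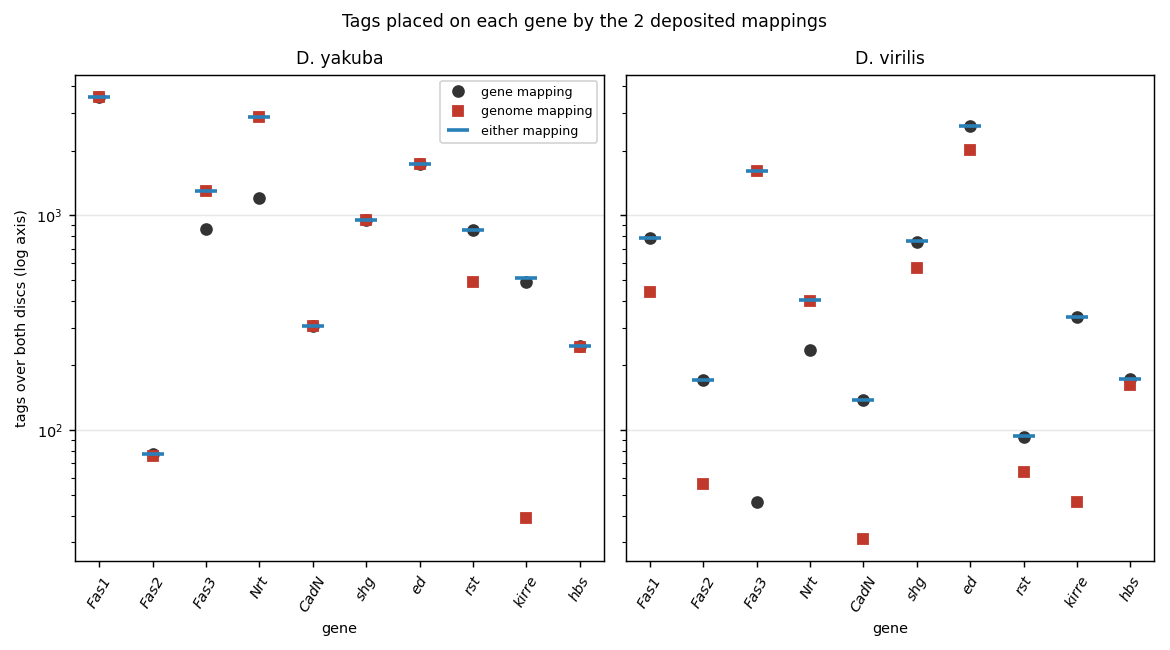
Tags of each gene over both discs of D. yakuba and of D. virilis, on a log axis, by the gene mapping (circles), the genome mapping (squares) and by either of them (bars). Fas3 in D. virilis has 46 tags by the gene mapping and 1611 by either, whereas kirre in D. yakuba has 492 by the gene mapping and 39 by the genome mapping.

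The mapping matters most for the comparison between species, which was made in the same edgeR fit with the 2 discs of a species as its replicates. D. yakuba over D. melanogaster, 0 of the 10 genes were higher, where 16.5% of all tested genes were, and 1 was lower, where 17.6% were. D. virilis over D. melanogaster, 2 were higher, against 23.9% of all genes, and 4 lower, against 24.7%. D. virilis over D. yakuba, 1 was higher, against 25.8%, and 4 lower, against 26.1%. Of these counts, only the 4 of 10 lower in D. virilis lie above the share of all genes, and those 4 were Fas1, Fas3, Nrt and rst against either species. That count holds for the gene mapping only. Over D. melanogaster it was 2 by either mapping and 3 by the genome mapping, and over D. yakuba 3 and 2. No share over all genes is given for those mappings.

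Fas1, Nrt and rst were lower in D. virilis than in D. melanogaster, with log2 folds of -1.12 (SE 0.29, adjusted p = 0.0173), -1.58 (SE 0.32, adjusted p = 0.00666) and -1.94 (SE 0.41, adjusted p = 0.00783) in edgeR. kirre was higher in D. virilis than in D. melanogaster by 1.73 (SE 0.44, edgeR adjusted p = 0.0174). Fas2 was higher in D. virilis than in D. yakuba by 1.87 (SE 0.40, edgeR adjusted p = 0.00777) and than in D. melanogaster by 1.17 (SE 0.39, edgeR adjusted p = 0.0437). Fas3 was lower in D. virilis than in D. melanogaster, with a log2 fold of -5.82 (SE 0.43, edgeR adjusted p = 0.000338), and in D. yakuba than in D. melanogaster, with -2.12 (SE 0.35, edgeR adjusted p = 0.00398).

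Several of these rest on where tags were placed. By the genome mapping Fas2 was at 0.23 (edgeR adjusted p = 0.715) in D. virilis over D. melanogaster and at 0.86 (edgeR adjusted p = 0.195) in D. virilis over D. yakuba, and neither passed. With every position of either mapping, Fas3 stood at -0.69 (edgeR adjusted p = 0.0977) and Nrt at -0.86 (edgeR adjusted p = 0.0515) in D. virilis over D. melanogaster, and neither passed. By the genome mapping alone kirre was at -0.43 (edgeR adjusted p = 0.486) in D. virilis over D. melanogaster, and in D. yakuba over D. melanogaster at -2.42 (edgeR adjusted p = 0.0182), against 0.99 (edgeR adjusted p = 0.128) by the gene mapping. CadN, shg, ed and hbs passed in none of the 3 species comparisons by the gene mapping, with fitted log2 folds between -1.13 and 1.19.

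Most genes had tags at more than 1 position, and the balance between positions differed between discs. For each gene the 2 most-tagged positions at least 100 bases apart were taken, from either mapping, and the one further downstream along the gene was followed. This description was added after such a difference had been seen for Fas1. In D. melanogaster the downstream position held a larger part of the tags in the eye-antennal than in the wing disc, with intervals apart, for 5 of the 10 genes, where 10.3% of 5330 genes with enough tags showed this, and a smaller part for 1, where 4.37% did. Whether or not the intervals were apart, it held a larger part there for 8 of the 10 genes, against 57.1% of all these genes. Fas1, whose difference prompted the description, was among both the 5 and the 8, so these counts are not independent of it. Over the 3 species 27 pairs of gene and species had at least 10 tags at these positions in both discs, and left out were Fas2 in D. yakuba and D. virilis and CadN in D. virilis. The downstream share was higher in the eye-antennal disc in 20 of the 27, and in 10 of these the intervals did not overlap. Without the Fas1 pairs, which prompted the description, it was 17 of 24, with intervals apart in 7. The share over all genes was computed in D. melanogaster alone, so for the other species these counts have no background. It was higher in the wing disc in 7, of which ed in D. virilis and shg in D. melanogaster had intervals apart.

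Fas1 showed the same shift in each species. Of the tags at its 2 main positions, the downstream one held 49.4% (46.4 to 52.4) in the eye-antennal and 34.2% (29.0 to 39.7) in the wing disc of D. melanogaster, where the positions are 1725 bases apart. In D. yakuba, at positions that the genome mapping puts on the same 2 D. melanogaster positions, it held 48.2% (46.3 to 50.2) in the eye-antennal and 26.7% (22.6 to 31.0) in the wing disc. In D. virilis it held 63.1% (58.5 to 67.6) in the eye-antennal and 40.8% (34.2 to 47.7) in the wing disc. Taken position by position, the excess of Fas1 tags in the eye-antennal disc was therefore unequal: in D. melanogaster the upstream position had 556 eye-antennal and 208 wing tags and the downstream one 542 and 108.

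For CadN the downstream position held 65.3% (58.9 to 71.3) in the eye-antennal and 34.1% (20.1 to 50.6) in the wing disc of D. yakuba. In D. melanogaster it held 28.9% (23.7 to 34.6) in the eye-antennal and 10% (1.23 to 31.7) in the wing disc, with intervals that overlap, on 20 wing tags. In D. virilis 95 eye-antennal and 2 wing tags lay at the downstream position and 2 and 6 at the other. That downstream position is the main one of the 7 that the genome mapping did not place on CadN, which left 16 eye-antennal and 15 wing tags on the gene. For Nrt the downstream share was 88.4% (85.7 to 90.8) in the eye-antennal and 75.3% (65.5 to 83.5) in the wing disc of D. melanogaster, and 26.0% (20.4 to 32.2) and 7.69% (2.14 to 18.5) in those of D. virilis. In D. yakuba it was 57.7% (55.7 to 59.6) in the eye-antennal and 61.3% (54.2 to 68.0) in the wing disc, with overlapping intervals. For kirre in D. melanogaster it was 76.7% (65.4 to 85.8) in the eye-antennal and 29.4% (10.3 to 56.0) in the wing disc, on 17 wing tags.

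**Figure D4:**
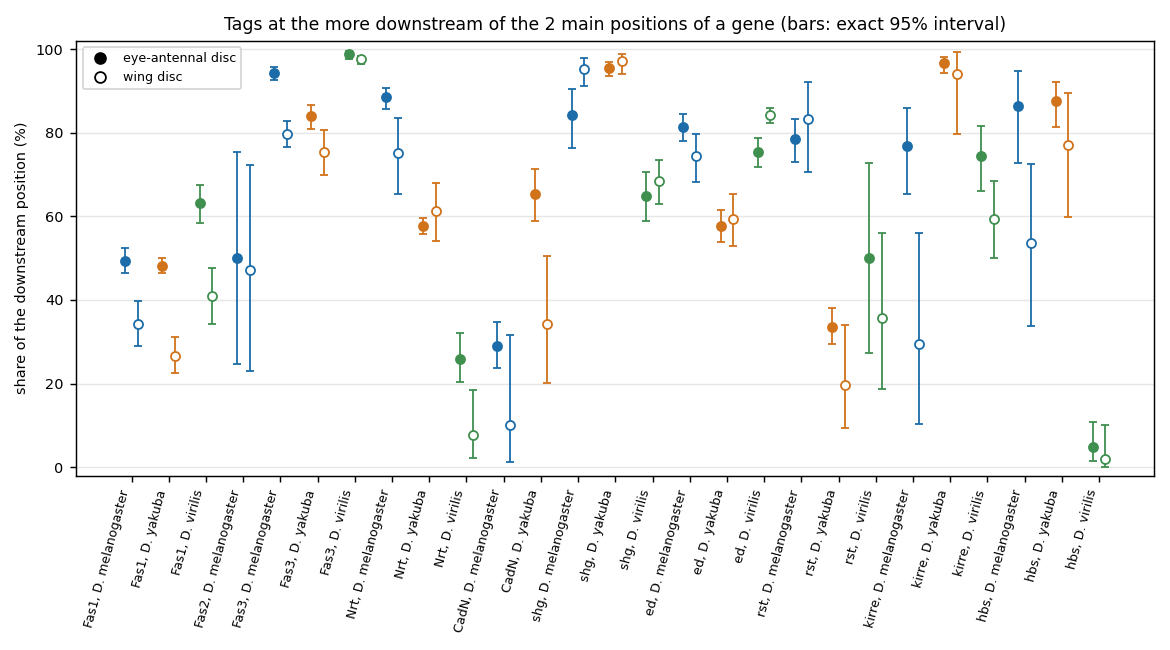
Share of tags at the more downstream of the 2 main positions of a gene, in the eye-antennal (filled) and the wing disc (open), for 27 pairs of gene and species, with bars for the exact 95% interval. The Fas1 shares are higher in the eye-antennal disc in all 3 species, with intervals that do not overlap.

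Other adhesion genes were counted in 6 lists, chosen from textbook membership. In none of the lists did a gene pass the edgeR test across species at an adjusted p of 0.05. The listed adherens junction genes had a median log2 fold of 0.26, 0.01 and 0.11 in D. melanogaster, D. yakuba and D. virilis. The 2-fold rule was met in the eye-antennal direction by 0 of 13, 0 of 7 and 1 of 10 measured genes, and in the wing direction by 0. The 1 gene was cno, which encodes the junction protein Canoe, with a fold of 2.84 (2.29 to 3.55) in D. virilis, named after its value was seen. The β-catenin gene arm, whose protein binds E-cadherin, had a fitted log2 fold of 0.36 (SE 0.25, edgeR adjusted p = 0.692), and α-catenin, alpha-Cat, 0.09 (SE 0.30, edgeR adjusted p = 0.941).

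The septate junction list had median log2 folds of 0.00, 0.28 and 0.06 in D. melanogaster, D. yakuba and D. virilis, with 0 genes higher in the eye-antennal disc of any species. Among 19, 17 and 19 measured genes, only kune, a claudin gene, in D. melanogaster was higher in the wing disc, 3.18-fold. cora, which encodes the band 4.1 protein Coracle, had a fitted log2 fold of 0.49 (SE 0.24, edgeR adjusted p = 0.564). Tsf2, a transferrin gene needed for septate junctions, had -0.40 (SE 0.34, edgeR adjusted p = 0.744).

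Other members of the cadherin superfamily had median log2 folds of 0.59, 0.29 and 0.03. By the 2-fold rule 2 of 11 genes were higher in the eye-antennal disc of D. melanogaster, 1 of 9 in that of D. yakuba and 1 of 12 in that of D. virilis, and 0 in any wing disc. Cad88C was higher in D. melanogaster, with 58 eye-antennal tags and 1 wing tag, and in D. yakuba, with 345 and 28, a fold of 4.60 (3.13 to 7.02). Its D. virilis fold was 1.80 (1.37 to 2.36). Cals, which encodes Calsyntenin, had the most tags of this list and a fitted log2 fold of 0.46 (SE 0.24, edgeR adjusted p = 0.590).

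Genes of integrin adhesion had median log2 folds of -0.17, 0.01 and -0.57. By the 2-fold rule 1 of 13 was higher in the eye-antennal disc of D. melanogaster and 3 in its wing disc, 0 and 1 of 12 in D. yakuba, and 0 and 2 of 12 in D. virilis. Tig, which encodes the integrin ligand Tiggrin, was higher in the wing disc in all 3 species, with 30, 38 and 5 eye-antennal tags in D. melanogaster, D. yakuba and D. virilis against 73, 92 and 142 wing tags. The fit gave -2.69 (SE 0.53, edgeR adjusted p = 0.0959). vkg, a collagen IV gene, was higher in the wing disc of D. melanogaster, 4.42-fold, and of D. virilis, 4.93-fold. Hemocyte markers summed to 169, 555 and 16.98 CPM in the eye-antennal libraries in D. melanogaster, D. yakuba and D. virilis and to 578, 513 and 41.0 CPM in the wing libraries. The rule for the wing disc was met by SPARC in D. melanogaster, 4.42-fold, and by Hml in D. virilis, 3.33-fold. That for the eye-antennal disc was met by NimC1 in D. yakuba, 2.85-fold. Fat body markers, which bear on secreted matrix proteins, summed to 16820, 2432 and 296 CPM in the eye-antennal libraries in D. melanogaster, D. yakuba and D. virilis and to 29200, 25900 and 8822 in the wing libraries. The hemocyte gene SPARC and the fat body genes Lsp1alpha and Lsp1beta had no tag in either D. virilis library. Those D. virilis sums therefore cover fewer genes than the D. melanogaster sums. The part of the hemocyte and fat body lists in these values was not tested. LanA, a laminin gene with the most tags of the list, had a fitted log2 fold of -0.37 (SE 0.28, edgeR adjusted p = 0.719).

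Further immunoglobulin and leucine-rich repeat genes had median log2 folds of 0.56, 0.19 and 0.49. By the 2-fold rule 2 of 15 were higher in the eye-antennal disc of D. melanogaster and 2 in its wing disc, 1 of 16 and 0 in D. yakuba, and 2 of 15 and 0 in D. virilis. klg, which encodes the immunoglobulin protein Klingon, was higher in the eye-antennal disc in all 3 species, with 24, 217 and 31 eye-antennal tags in D. melanogaster, D. yakuba and D. virilis against 1, 17 and 0 wing tags, and its edgeR adjusted p was 0.144. tutl, which encodes Turtle, had a fold of 2.95 (2.34 to 3.74) in D. melanogaster, 1.83 (1.59 to 2.10) in D. yakuba and 1.64 (1.31 to 2.04) in D. virilis, and an edgeR adjusted p of 0.193. In the list of partners of the Irre cell recognition module 0 of 9, 0 of 8 and 0 of 7 measured genes met the rule in either disc, with median log2 folds of 0.38, 0.17 and 0.06. rols, a scaffold protein gene, had a fitted log2 fold of 0.04 (SE 0.30, edgeR adjusted p = 0.980) and Cip4 0.15 (SE 0.25, edgeR adjusted p = 0.883).

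**Figure D5:**
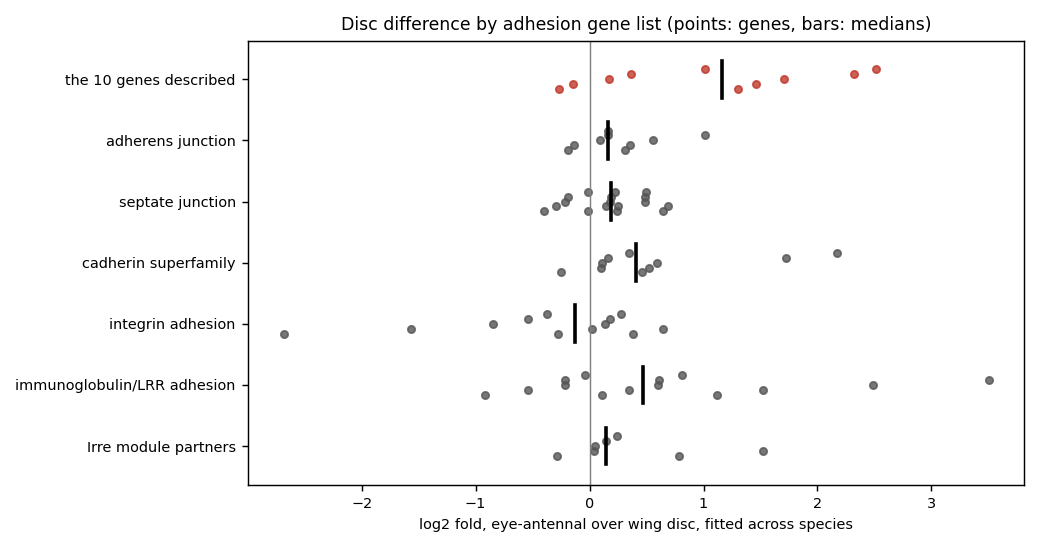
Log2 fold of eye-antennal over wing disc, fitted across species with edgeR, for the 10 genes (red) and for the tested genes of 6 other adhesion lists (grey), with a bar at the median of each. The median of the 10 genes is 1.16, that of all 5953 tested genes is 0.02, and Nrt is the one gene in the plot with an adjusted p under 0.05.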

How the data were processed

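The deposited files hold raw counts of tags per genomic position with the gene the authors assigned, per the file headers. The submitters' processing notes name Bowtie 0.12.1, and builds and mismatch settings are not stated. The files hold no strand. Counts were summed per gene from the gene mapping, with the genome mapping and the union of both as alternatives. Within a species, exact conditional binomial (Clopper-Pearson) intervals were computed where a gene had 10 or more tags in the 2 libraries together, with 0.5 tags added for log2 folds. These intervals cover counting error only, and tags are not independent molecules. Across species, edgeR 4.0.16 (quasi-likelihood test, filterByExpr with a minimum count of 10, TMM) was fitted to disc with species as block over genes paired by D. melanogaster identifier. The alternatives included DESeq2 1.42.0. Species and discs stand in for replicates, which the labels do not give. Of 180 list entries 161 matched a gene. Gene positions are from the BDGP6.54 annotation, where Fas1 and hbs were matched by symbol because their identifiers there are newer. All 10 genes are described; list genes are those with the most tags, plus some that met the rule and were named after their values were seen. The 10 genes and the lists were chosen with earlier results of these data known.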

Additional observations from a re-analysis of the deposited data

Results flagged for a closer look

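The log2 fold of ed, eye-antennal over wing disc, was 0.99 in D. melanogaster and 0.19 in D. yakuba but -0.89 in D. virilis, opposite directions under the same contrast in libraries without replicates, and the difference between species was not tested.

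Positions that the gene mapping puts on another gene carried 1565 tags of Fas3 in D. virilis and 1658 tags of Nrt in D. yakuba by the genome mapping. Counting every position of either mapping gave totals of 1611 tags for Fas3 and 2865 tags for Nrt, against 46 and 1207 by the gene mapping.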

How the results depend on the processing

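With a minimum of 50 tags, the genes higher in the eye-antennal disc numbered 323 in place of 648 in D. melanogaster and 221 in place of 599 in D. virilis. Those higher in the wing disc numbered 164 in place of 284 in D. yakuba. Fewer genes are compared there, so these counts alone do not show whether the share of genes called changed. The D. virilis genome mapping gave 353 such eye-antennal genes and 2 in place of 4 of the 10 adhesion genes. Across species, 1 of the 10 was higher in the eye-antennal disc (Nrt), 4 with DESeq2, 3 with no filter on low counts, 0 with the most-tagged position only, 0 with no replicate block for species, and 1 to 3 when a species was left out. Over all genes 29 were higher, 153 with DESeq2, 82 with no filter, 5 with the most-tagged position, 0 with no block, and 24 to 97 when a species was left out; 11 were lower, against 66, 22, 4 and 0 in those settings, 6 with the genome mapping and 8 to 33 when a species was left out. With no block the adjusted p of Nrt was 1.0. The number of genes tested differed between settings, with 5953 in the main fit and 6453 by the genome mapping, so the counts over all genes are not shares. D. yakuba over D. melanogaster, 2 in place of 1 were lower by the genome mapping. D. virilis over D. melanogaster, 1 in place of 2 was higher with total tag scaling and with no filter, and 2 in place of 4 were lower by either mapping (chosen after seeing the data). D. virilis over D. yakuba, 2 in place of 1 were higher with total tag scaling and with DESeq2 and 3 by the genome mapping, and 2 in place of 4 were lower by the genome mapping. For the species comparisons no share over all genes is given under these settings, so those counts describe the 10 genes only.

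The fitted direction of some genes changed. Between discs, Fas2 was at -0.23 with the most-tagged position only and Fas3 at 0.063 and ed at -0.11 with no block; leaving out a species moved Fas3 between -0.35 and 0.073, shg between -0.47 and 0.079 and ed between -0.27 and 0.65. D. yakuba over D. melanogaster, Fas1 was at -0.019 and ed at -0.19 with total tag scaling, ed at -0.999 with the most-tagged position, rst at 0.0082 with DESeq2 and 0.10 with no filter, Nrt at 1.003 by the genome mapping and 0.93 by either mapping, and kirre at -2.42 by the genome mapping. D. virilis over D. melanogaster, Fas3 was at 0.058 and kirre at -0.43 by the genome mapping. D. virilis over D. yakuba, Fas3 was at 1.49 by the genome mapping and 0.81 by either mapping, and shg at -0.39 with the most-tagged position. Apart from the mapping changes, whose tags are given with the genes, the cause was not tested.

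Total tag scaling shifted all log2 folds of a species by 0.15, 0.06 and 0.25 in D. melanogaster, D. yakuba and D. virilis. Fas2, sns and the D. virilis values of Fas3, rst and CadN rest on few tags, and 1 library per group leaves variation between animals unmeasured.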
